A study of Mus musculus with 8 samples.

Results

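The NK-like homeobox genes encode a class of homeodomain transcription factors that includes the Nkx, Dlx, Msx, Lbx, Tlx, Barhl, Barx, Bsx, Hhex, Vax, Emx, En, Hlx, Hmx and Dbx subfamilies. The 44 genes were taken by membership of the class, and each of the 44 was found among the 34324 protein-coding and lncRNA genes annotated on the autosomes and the X chromosome. Each was autosomal. For every library the share of the windows within 2.5 kb of both annotated gene ends that deposited H3K27me3 peaks covered was taken (end cover), as were the share of the gene body covered, the extent of the peak domain touching the gene and the height of the strongest peak there.

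H3K27me3 was measured by chromatin immunoprecipitation and sequencing in female neural stem cell lines made from E14.5 mouse embryos. Both groups carried a maternal X of 129 origin with the deltaA allele of Xist, a paternal Castaneus X and a C57BL/6, 129 and Castaneus mixed background. The del/del cells (2 libraries) had been transduced with the MSCV-Cre-puro retrovirus, selected with puromycin from 24 h and harvested on day 7, which deletes the remaining conditional allele of Smchd1, a chromatin protein known for its part in X inactivation. The del/fl cells (2 libraries) kept 1 conditional allele and were neither transduced nor selected, so deletion and transduction cannot be told apart. Each line was divided into a transduced and an untransduced portion, and the labels do not say which libraries share a line or whether the embryos differed. The p-values given here therefore measure the spread between these 4 samples, which may be technical. The 4 whole-cell extract libraries served as the peak caller's background.

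H3K27me3 is written by Polycomb repressive complex 2, which acts at CpG-rich promoters of developmental regulators that are not transcribed in a given lineage. Homeobox genes are among the classic Polycomb targets, and in neural progenitors a gene of the class is usually held under a broad H3K27me3 domain unless that progenitor uses it. Several NK-like factors set the dorsoventral identity of the neural tube and forebrain, while others direct heart, spleen, muscle, gut and skeletal development.

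The gene starts that carry the contrast within the class are shown first, as the 250 bases before the RefSeq start site (GRCm38.p6, the build called mm10), read 5′ to 3′ on the gene's strand with each CpG in capitals. Nkx2-1 (chr12:56536909-56537158, minus strand), Nkx2-3 (chr19:43612075-43612324, plus), Nkx2-5 (chr17:26841566-26841815, minus) and Msx1 (chr5:37824586-37824835, minus) stand for genes covered by peaks at both ends in the 4 libraries, chosen among these for their long domains. The start used for Nkx2-5 lies inside its annotated span, chr17:26838664-26844988.
Nkx2-1: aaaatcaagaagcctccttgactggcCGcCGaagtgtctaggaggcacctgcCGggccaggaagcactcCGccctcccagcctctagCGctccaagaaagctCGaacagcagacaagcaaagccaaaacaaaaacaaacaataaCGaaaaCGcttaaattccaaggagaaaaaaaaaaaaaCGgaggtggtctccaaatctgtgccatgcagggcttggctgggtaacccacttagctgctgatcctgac
Nkx2-3: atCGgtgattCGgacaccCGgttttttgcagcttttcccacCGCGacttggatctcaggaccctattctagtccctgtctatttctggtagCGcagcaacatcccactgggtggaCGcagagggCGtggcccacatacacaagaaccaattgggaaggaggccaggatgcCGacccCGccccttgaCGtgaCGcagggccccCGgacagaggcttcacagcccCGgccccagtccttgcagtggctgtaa
Nkx2-5: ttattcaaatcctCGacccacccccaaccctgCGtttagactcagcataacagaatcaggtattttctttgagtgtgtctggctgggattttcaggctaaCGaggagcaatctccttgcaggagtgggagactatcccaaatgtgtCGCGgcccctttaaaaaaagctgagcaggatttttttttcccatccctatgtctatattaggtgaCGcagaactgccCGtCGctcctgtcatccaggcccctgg
Msx1: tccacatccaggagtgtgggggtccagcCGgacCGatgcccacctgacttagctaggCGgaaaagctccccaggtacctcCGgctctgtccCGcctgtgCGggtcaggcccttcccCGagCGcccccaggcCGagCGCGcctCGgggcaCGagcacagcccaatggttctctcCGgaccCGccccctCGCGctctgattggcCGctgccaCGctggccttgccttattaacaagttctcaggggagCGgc

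The next sequences belong to the genes with the lowest end cover that the promoter table holds. They are Emx2 (chr19:59458440-59458689, plus), Dbx2 (chr15:95654772-95655021, minus), Nkx2-2 (chr2:147186403-147186652, minus) and Hlx (chr1:184732494-184732743, minus). The start used for Nkx2-2 lies inside its annotated span, chr2:147176485-147195434.
Emx2: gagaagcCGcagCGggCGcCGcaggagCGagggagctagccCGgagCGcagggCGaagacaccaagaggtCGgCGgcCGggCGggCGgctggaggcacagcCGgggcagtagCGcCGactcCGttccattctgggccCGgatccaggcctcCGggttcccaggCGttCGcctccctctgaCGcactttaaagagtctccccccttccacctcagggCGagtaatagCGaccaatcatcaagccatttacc
Dbx2: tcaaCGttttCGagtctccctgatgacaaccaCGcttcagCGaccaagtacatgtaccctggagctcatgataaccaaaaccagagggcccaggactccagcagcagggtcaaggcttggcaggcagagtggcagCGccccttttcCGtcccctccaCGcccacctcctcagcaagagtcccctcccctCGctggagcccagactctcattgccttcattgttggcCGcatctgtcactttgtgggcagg
Nkx2-2: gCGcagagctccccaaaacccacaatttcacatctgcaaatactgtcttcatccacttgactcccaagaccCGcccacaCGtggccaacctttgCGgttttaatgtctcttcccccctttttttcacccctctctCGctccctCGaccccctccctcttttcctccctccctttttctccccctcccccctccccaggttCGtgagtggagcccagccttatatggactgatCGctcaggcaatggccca
Hlx: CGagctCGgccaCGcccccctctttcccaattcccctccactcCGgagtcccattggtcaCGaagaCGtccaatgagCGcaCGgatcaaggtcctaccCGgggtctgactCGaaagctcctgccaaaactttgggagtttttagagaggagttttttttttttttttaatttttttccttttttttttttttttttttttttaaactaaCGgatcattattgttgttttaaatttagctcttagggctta

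Dlx2 (chr2:71546755-71547004, minus) was added after its values were seen, because its start site was covered in the del/fl libraries and bare in the del/del libraries.
Dlx2: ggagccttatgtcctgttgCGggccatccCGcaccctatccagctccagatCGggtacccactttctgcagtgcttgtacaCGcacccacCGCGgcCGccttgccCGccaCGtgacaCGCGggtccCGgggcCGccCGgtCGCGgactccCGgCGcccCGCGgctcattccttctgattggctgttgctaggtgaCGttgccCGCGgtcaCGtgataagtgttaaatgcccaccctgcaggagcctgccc

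CpG number overlapped between covered and bare starts. The 250 bases held 24 CpGs at the bare Emx2 start and 24 at Dlx2, and 9 at bare Dbx2, 8 at Nkx2-2 and 11 at Hlx. At the covered starts they held 9 in Nkx2-1, 14 in Nkx2-3, 8 in Nkx2-5 and 20 in Msx1. Of the 44 genes, 32 were matched in the promoter table, with a median of 18.5 CpGs, beside 6 over its 26793 genes and 10 over the 1650 of them whose start site a peak covered in the 4 libraries. Within the 32, the median was 19 (range 1 to 40) at the 27 starts covered in the 4 libraries. It was 11 (range 8 to 24) at the other 5, Dlx2 included, and the difference was not tested. The motif TAATTA, the core that many homeodomains bind and the same on both strands, was found in 1 of the 32 windows (3.13%) and in 4.86% of all windows of this length. AAGTG, the core bound by NK2 homeodomains, was found on either strand in 13 of 32 (40.6%) and in 40.6% of all windows. These counts describe letters in a window.

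Most of the class lay under H3K27me3 in both genotypes. A peak touched the end windows of 41 of the 44 genes in the 4 libraries, beside 13.7% of all annotated genes. The end windows of 28 genes were covered over their whole length in each library, which held for 333 of all genes (0.970%), and the gene bodies of 34 were. As a neighbouring class for scale, 23 of 24 LIM, sine oculis and Iroquois homeobox genes had a peak at their ends in the 4 libraries. Of the 24, 8 were covered throughout. The difference between these classes was described, not tested. Full cover of both ends also depends on gene length, which was not matched between the classes or with all genes.

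**Figure D1:**
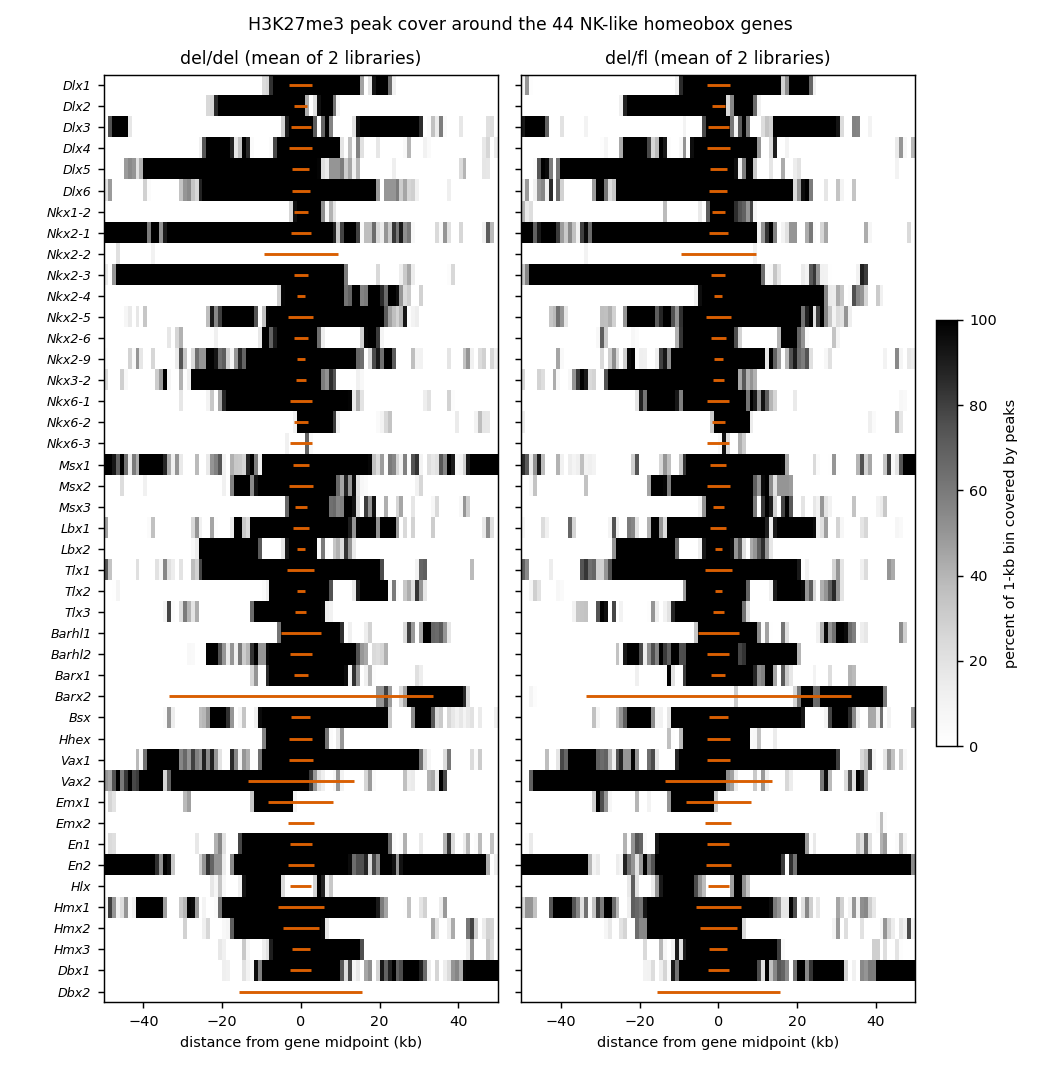
Percent of each 1-kb bin covered by deposited H3K27me3 peaks (grey scale, 0 to 100) within 50 kb of the midpoint of each of the 44 genes, as the mean of 2 del/del libraries (left) and 2 del/fl libraries (right). Horizontal lines mark the annotated gene span. Most genes sit inside a black block in both panels, while Nkx2-2, Emx2 and Dbx2 have almost none, and the blocks of Barx2, Vax2 and Emx1 cover 1 end of the gene.

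The fully covered genes came from most subfamilies. Among the ventral forebrain factors they were Dlx1, Dlx5 and Dlx6, which act in the making of inhibitory interneurons, and Nkx2-1, which specifies the medial ganglionic eminence as well as thyroid and lung. Among neural tube factors they were Nkx2-9 of the ventral neural tube, Nkx6-1 of ventral progenitors and the pancreas, Dbx1 of intermediate progenitors, Msx1 and Msx2 of the dorsal midline and face, and Lbx1 and Tlx3 of dorsal horn neurons. En1 and En2, which pattern the midbrain and hindbrain, Vax1 of the optic stalk, Bsx and Nkx2-4 of the hypothalamus, Barhl2 of the retina and spinal cord, Hmx1 and Hmx3 of sensory organs and Tlx2 of enteric neurons were also fully covered. Outside the nervous system the list held Nkx2-5 of the heart, Nkx2-3 and Tlx1 of the spleen, Hhex of liver and blood, Nkx3-2 of the axial skeleton, Barx1 of the stomach and teeth, with Dlx4 and Lbx2 completing the 28.

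By subfamily, the genes fully covered at their ends in the 4 libraries were 4 of 6 Dlx, 5 of 8 Nkx1 and Nkx2, 2 of 4 Nkx3 and Nkx6, 2 of 3 Msx, 2 of 2 Lbx, 3 of 3 Tlx, 2 of 2 En and 2 of 3 Hmx genes. Barhl, Barx, Vax and Dbx had 1 of 2 each, Bsx and Hhex 1 of 1, Emx 0 of 2 and Hlx 0 of 1. These are counts of genes, several of which share a domain, and no test between subfamilies was made.

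The 3 genes with no mark or almost none, Emx2, Dbx2 and Nkx2-2, are neural patterning factors. Emx2 (chr19:59458690-59465357), a regulator of the cerebral cortex and urogenital tract, had an end cover and body cover of 0% in each of the 4 libraries. The nearest peak to its start lay 55943 and 67428 bp away in del/del, with 45200 and 44263 bp away in del/fl. In the 300 kb around it, peaks covered 0.234% and 0.171% in del/del, with 0.548% and 0.520% in del/fl. Its neighbour Vax1, 288 kb away on the same chromosome, was fully covered.

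Dbx2 (chr15:95623563-95654771), expressed in progenitors of intermediate neural tube domains, also stood at 0% at its ends and in its body in the 4 libraries. No peak fell within 300 kb around it in any library, and the nearest to its start lay 345730 and 550722 bp away in del/del, with 551980 and 551501 bp in del/fl. Its paralogue Dbx1 (chr7:49631499-49636835) was covered throughout in each library.

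Nkx2-2, which specifies the most ventral spinal progenitors and acts in oligodendrocyte and pancreatic development, had an end cover of 0% and 0% in del/del, with 2.26% and 0% in del/fl. The 1 peak was 0.226 kb long, with a pileup at percentile 8.04 of its list. Nkx2-4, 91.0 kb away, lay under a domain of 31.3 and 36.4 kb in del/del, with 32.3 and 35.2 kb in del/fl that stopped short of Nkx2-2. Nkx2-2os, annotated as the opposite-strand transcript, which overlaps Nkx2-2 and extends away from Nkx2-4, had an end cover of 21.7% and 16.02% in del/del, with 16.7% and 23.0% in del/fl.

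**Figure D2:**
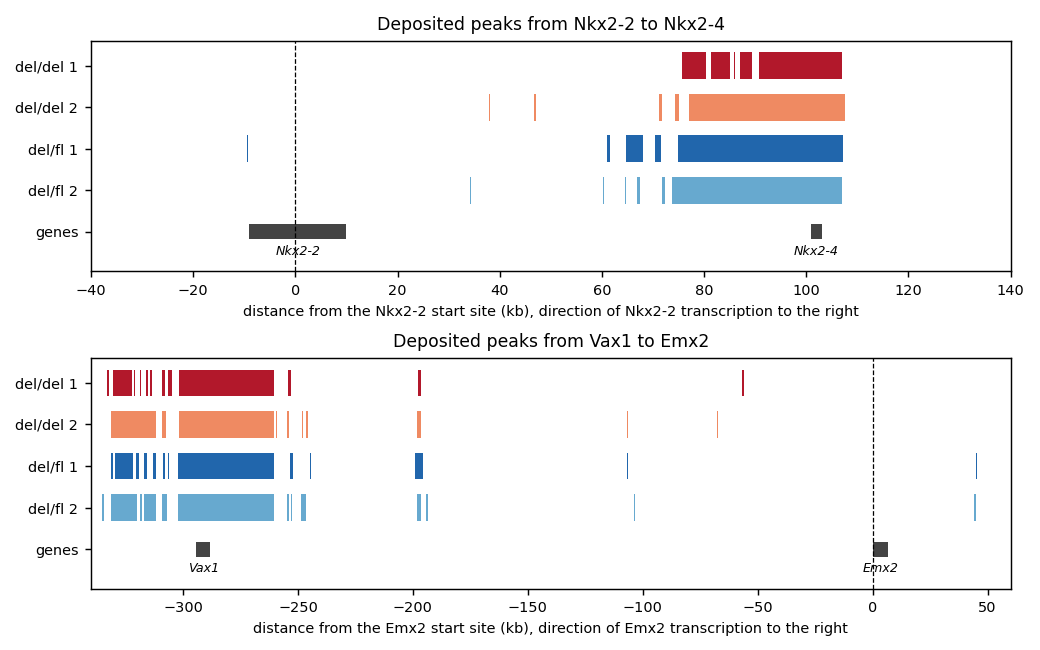
Deposited peaks of each library (coloured bars, 1 row per library) and annotated genes (grey) around Nkx2-2 and Nkx2-4 (top) and around Vax1 and Emx2 (bottom), in kb from the Nkx2-2 and the Emx2 start site. The blocks over Nkx2-4 and Vax1 end before Nkx2-2 and Emx2, which hold 1 short peak in 1 del/fl library and none.

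Hlx (chr1:184727143-184732493), a factor of gut and liver mesenchyme, had an unmarked body between marked flanks. Its end cover was 19.2% and 18.02% in del/del, with 16.3% and 35.9% in del/fl, and its body cover was 0% in the 4 libraries. The stretch without peaks over the start site measured 8433 and 8549 bp in del/del, with 9007 and 6764 bp in del/fl. The second del/fl library was the high value, and the genotypes overlapped.

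Nkx6-3 (chr8:23153271-23158948), a factor of the stomach antrum, carried a short weak peak. Its end cover was 7.00% and 9.98% in del/del, with 9.77% and 16.4% in del/fl, and its domain 0.700 and 0.767 kb against 0.977 and 5.70 kb. The strongest peak there stood at percentile 54.2, 61.9, 12.4 and 65.0 of the del/del 1, del/del 2, del/fl 1 and del/fl 2 lists. End cover overlapped between genotypes.

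In Barx2, Vax2 and Emx1 the domain stopped inside the gene, which left 1 end bare. Emx1 (chr6:85187931-85204463), the paralogue of Emx2 that marks the dorsal telencephalon, was covered over its start and bare at its far end, so that its end cover was 50% in each library. Its domain reached into the body over 37.9% and 38.9% of its length in del/del, with 45.0% and 46.7% in del/fl. Barx2 (chr9:31846044-31913285), a gene of muscle and cartilage, was bare at its lower-coordinate end in each library, with a body cover of 13.3% and 15.2% in del/del, with 17.97% and 21.0% in del/fl. Vax2 (chr6:83711239-83738313) of the ventral retina was bare at its higher-coordinate end in 3 libraries and covered over 24.0% of that end in the second del/fl library.

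Start sites lie at the ends or in the bodies already scored, so their cover was not a separate observation. Among the 32 genes with a start site in the promoter table, a peak covered the start in the 4 libraries at 27, in none at 4 (Nkx2-2, Emx2, Hlx and Dbx2) and in the del/fl libraries alone at Dlx2. Over all 26793 genes of the table the start was covered in the 4 libraries in 6.16%.

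Scored as presence or absence of a peak, no gene of the class gained or lost H3K27me3 at its ends. A gain, a peak in both del/del and no del/fl library, was found at 0 of the 44 genes (1.72% of the genes with a peak), and a loss, the converse, at 0 (2.21%). With shares this low over all genes, a count of 0 sets the class apart in neither direction. A gene with a peak in a del/fl library could not count as gained. Of the 42 genes with a peak at the ends in any library, limma with Benjamini-Hochberg adjustment over 9131 genes called 0 in either direction (background 0% higher and 0% lower) at an adjusted p of 0.05. At an unadjusted limma p of 0.05, 0 genes were higher and 1, Dlx2, was lower in del/del, where the background was 5.66% higher and 4.18% lower. That background includes X-linked genes. Of the 8064 autosomal genes with a peak at the ends, 143 were higher and 379 lower by the same limma p. For gene bodies 40 genes were tested and 0 were called (background 0% higher and 0% lower); at an unadjusted p of 0.05, 0 were higher and 2, Dlx2 and Emx1, were lower, beside 6.45% higher and 3.26% lower over 9331 genes. Without del/fl 1, which left 1 del/fl library, the difference at the Vax2 ends was −11.99 points, where the 4 libraries gave −5.99. At Nkx6-2 the remaining del/fl library had 66.4%, with 63.1% and 63.2% in del/del.

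Mean end cover was higher in del/del at 3 genes, lower at 9 and equal at 32, and 28 of the equal genes were fully covered, so their windows could not show more of the mark. At 3 genes, Dlx2, Nkx1-2 and Nkx6-2, both del/del values lay below both del/fl values, and at 0 genes above. Over all genes with a peak these shares were 13.8% below and 13.2% above, and over autosomal genes 15.5% below and 6.36% above. For bodies the count was 5 below (Dlx2, Nkx6-2, Nkx6-3, Barx2 and Emx1) and 0 above, beside 13.1% and 13.5% of all genes and 14.7% and 6.74% of autosomal genes.

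**Figure D3:**
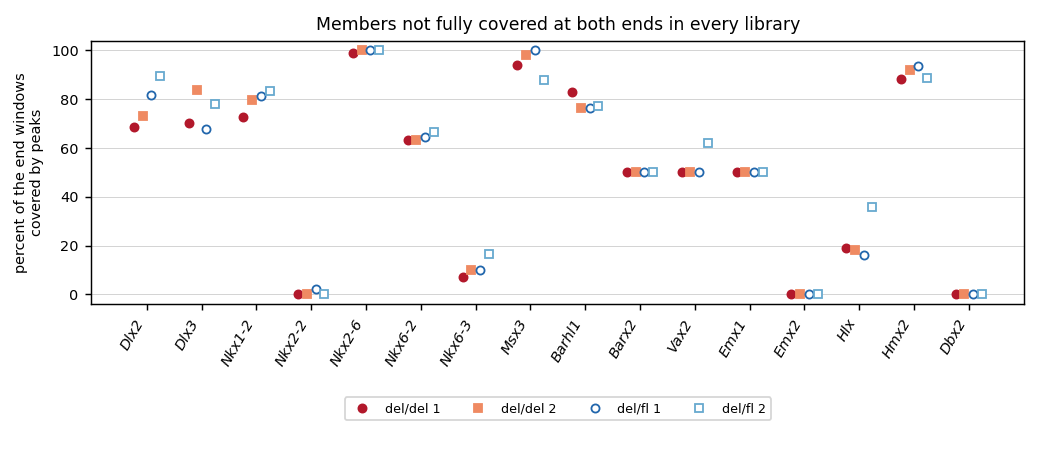
End cover (percent of the windows within 2.5 kb of both gene ends under peaks, linear axis) of the 16 genes that were not fully covered in the 4 libraries, 1 point per library. Filled symbols are del/del and open symbols del/fl; at Dlx2 both filled points lie below both open points, at Emx2 and Dbx2 the points lie at 0.

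Dlx2 (chr2:71543408-71546754), which together with Dlx1 drives inhibitory interneuron development in the ventral forebrain, had the largest difference in end cover among the 44 genes. Its end cover was 68.6% and 73.2% in del/del, with 81.8% and 89.6% in del/fl, or 70.9% ± 3.28 against 85.7% ± 5.48 (SD, n = 2 each). Both del/del libraries lay below both del/fl libraries. The difference of −14.8 points (SE 4.02) had an unadjusted limma p of 0.0433 and an adjusted p of 0.478, so it was not called. It was −9.25 points with windows of 5 kb, −7.34 with windows of 25 kb (limma adjusted p = 0.858) and −8.61 after division by autosomal cover (limma adjusted p = 0.932). With windows of 1 kb it was larger, at −20.6 points (limma adjusted p = 0.36). Stricter peaks (−log10 q from 5 upward) also gave a larger difference, −18.6 points (limma adjusted p = 0.298).

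The low values sat at the Dlx2 start. The gene's other end was covered throughout, while the start-side window was covered over 47.6% and 55.3% in del/del, with 69.6% and 82.6% in del/fl. A stretch without peaks between the peak over both genes and a further peak upstream of Dlx2 measured 2623 and 2236 bp in del/del, with 1518 and 871 bp in del/fl, and the start site printed above lay inside it in del/del, 183 and 319 bp from the nearest peak. Its mean width was 2430 ± 274 bp against 1195 ± 457 bp (SD, n = 2 each), with an exact two-sided permutation p of 0.33, the smallest that 2 against 2 libraries allow. Body cover of Dlx2 was 94.5% and 90.5% in del/del, with 100% and 100% in del/fl (limma adjusted p = 0.462), and Dlx1 was covered throughout in each library.

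**Figure D4:**
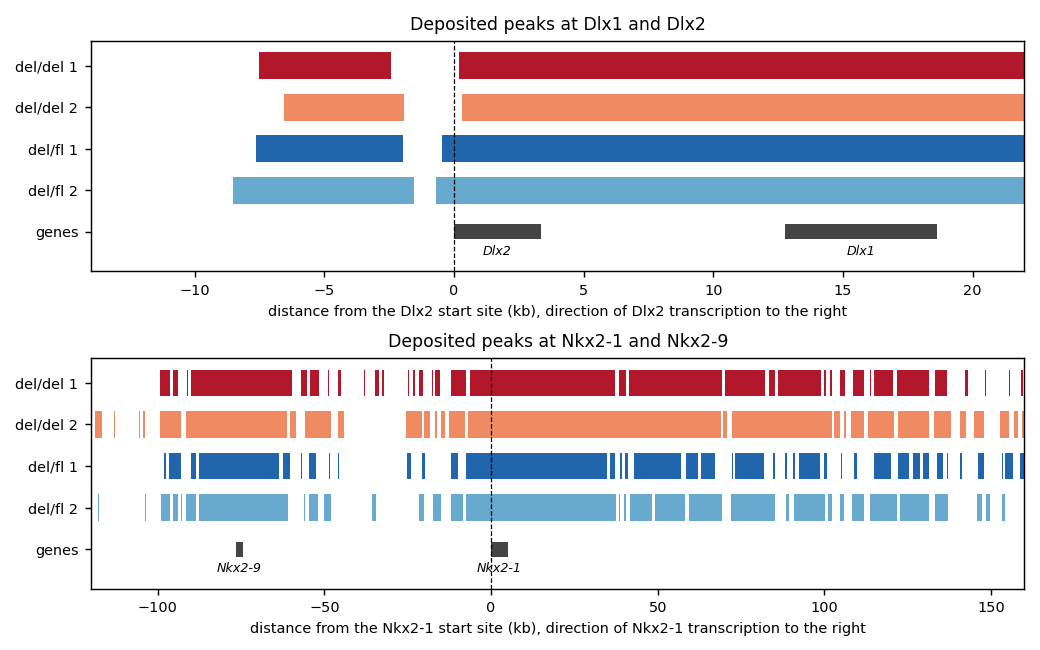
Deposited peaks of each library (coloured bars, 1 row per library) and annotated genes (grey) around Dlx2 and Dlx1 (top) and around Nkx2-1 and Nkx2-9 (bottom), in kb from the Dlx2 and the Nkx2-1 start site. The dashed Dlx2 start falls in the bare stretch in the del/del rows and under a peak in the del/fl rows; around Nkx2-1 the del/del rows have fewer and shorter gaps on the downstream side.

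In the other subfamilies the gene with the largest difference in end cover did not pass either. Nkx1-2 of the caudal embryo had 72.6% and 79.9% in del/del, with 81.1% and 83.4% in del/fl (limma adjusted p = 0.624). Its groups did not overlap, and the gap between them was narrow.
Msx3 of the dorsal neural tube had 94.3% and 98.3% in del/del, with 100% and 87.99% in del/fl. Barhl1 of hair cells and granule neurons had 82.8% and 76.5% against 76.3% and 77.4%. Hmx2 of the inner ear had 88.3% and 92.1% against 93.5% and 88.8%. At Msx3 both del/del values lay between the del/fl values, at Hmx2 the genotypes alternated, and at Barhl1 1 del/del library was above the rest, so the genotypes overlapped at each.
Nkx6-2 of ventral progenitors and oligodendrocytes stood at 63.1% and 63.2% in del/del, with 64.6% and 66.4% in del/fl, a separation of little over 1 point. Dlx3 of hair, teeth and placenta stood at 70.4% and 83.9% against 67.8% and 77.9%, and Nkx2-6 of the pharyngeal pouches at 99.0% and 100% against 100% and 100%, both with overlap. Emx1 body cover, given above, differed by −7.49 points, del/del minus del/fl (limma adjusted p = 0.342), the smallest adjusted p of the class in either window.

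The domains, taken as peaks joined across gaps of up to 3 kb, were long. The 41 to 42 genes with a domain lay in 38 to 39 separate domains per library, because Dlx1 with Dlx2, Dlx5 with Dlx6 and Hmx2 with Hmx3 shared one. The median of these domains was 31.3 and 33.7 kb in del/del, with 29.6 and 34.6 kb in del/fl, beside 0.951 and 0.825 kb and 1.15 and 0.915 kb over all autosomal domains, which need not touch a gene. By gene, the median longest domain was 31.2 and 33.55 kb in del/del, with 30.3 and 34.5 kb in del/fl. Over autosomal genes with a domain it was 3.10 and 2.78 kb, with 3.45 and 3.35 kb. Over the LIM, sine oculis and Iroquois genes with one it was 27.7 and 27.6 kb, with 24.3 and 27.4 kb. Domains over 20 kb touched 27 and 30 of the genes in del/del, with 29 and 30 in del/fl. On the autosomes 359 and 444 such domains were found in del/del, with 379 and 470 in del/fl. The first counts are of genes and the second of domains, so the one is not a share of the other.

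The 5 longest by the mean over libraries were, in order, those of Nkx2-1, En2, Nkx2-3, Nkx2-5 and Msx1. En2 had 67.1 and 83.1 kb in del/del, with 86.1 and 85.3 kb in del/fl. Nkx2-3 had 68.5 and 59.5 kb against 71.4 and 73.0 kb, and Nkx2-5 52.4 and 52.3 kb against 54.4 and 62.5 kb. At En2, Nkx2-3 and Nkx2-5 both del/del domains were shorter than both del/fl domains. The shortest were Emx2 and Dbx2, with none, and Nkx2-2. By subfamily the median of the genes' mean extents ran from 60.2 kb in En and 51.8 kb in Vax through 39.0 kb in Nkx1 and Nkx2 to 19.5 kb in Tlx and 5.56 kb in Emx.

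**Figure D5:**
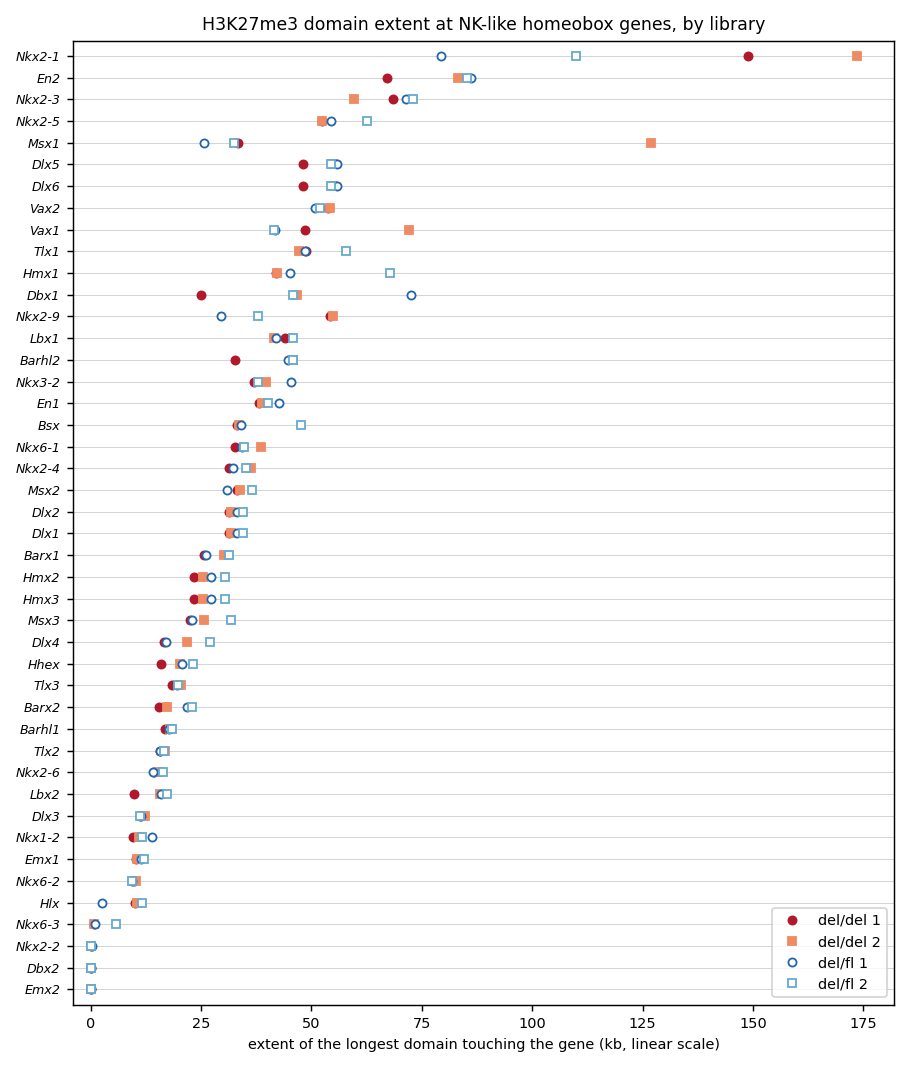
Extent in kb (linear axis) of the longest peak domain touching each of the 44 genes, 1 point per library, ordered by the mean. Filled symbols are del/del and open symbols del/fl; the filled points of Nkx2-1 and 1 filled point of Msx1 lie far to the right of the open ones.

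Across the class 31 genes had a shorter mean domain in del/del and 11 a longer one, while over autosomal genes with a domain 5989 were shorter and 4262 longer. The median difference was −2.44 kb in the class and −0.149 kb over autosomal genes, whose domains were themselves shorter, with a median of 2.78 to 3.45 kb across libraries. The median of the class was −0.425 kb without joining and −0.910 kb with joining up to 10 kb, and −0.545 kb without del/del 1 and −0.390 kb without del/fl 2. Both del/del values lay below both del/fl values at 16 of the 42 genes with a domain (background 14.7% of all and 16.3% of autosomal genes with a domain) and above them at 6 (15.1% and 7.61%). An exact permutation test of 1 gene cannot go below 0.33 here. The 16 were Dlx1, Dlx2, Nkx1-2, Nkx2-3, Nkx2-5, Nkx6-3, Lbx2, Barx2, Bsx, Hhex, Emx1, En1, En2, Hmx1, Hmx2 and Hmx3. Without joining of peaks, or with joining up to 10 kb, 5 of them (Dlx1, Dlx2, Nkx2-5, Hhex and Emx1) stayed below in each setting. Dlx1 with Dlx2, Dlx5 with Dlx6 and Hmx2 with Hmx3 share a domain and enter the counts of this paragraph separately. The counts are therefore of genes, and the separate domains are fewer. The libraries also differed in how much they called: peaks covered 1.34% and 1.79% of the autosomes in del/del, with 1.45% and 1.93% in del/fl. With lists cut to equal length, the median difference in extent was −1.24 kb, with 17 genes below and 7 above.

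The 6 genes with longer domains in del/del were Nkx2-1, Nkx2-9, Nkx6-2, Msx1, Vax1 and Vax2, and 3 of these (Nkx2-9, Nkx6-2 and Msx1) stayed above under each joining. The Nkx2-1 domain measured 148.9 and 173.6 kb in del/del, with 79.4 and 110.0 kb in del/fl. Both del/del values were the high ones, 1.70-fold above del/fl on average (161 ± 17.5 against 94.7 ± 21.6 kb, SD, n = 2 each, exact permutation p = 0.33). Without joining, the longest peak measured 43.6 and 75.9 kb against 42.4 and 45.0 kb, which overlapped. With joining up to 10 kb the domain measured 260.4 and 185.5 kb against 212.3 and 189.9 kb, which overlapped too.

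With gaps of up to 3 kb joined, the genotypes differed at the domain edge downstream of Nkx2-1 (chr12:56531935-56536908, minus strand). The lower-coordinate edge of the joined domain stood at 56400065 and 56388901 in del/del and at 56469652 and 56451660 in del/fl. In the 300 kb around the gene, a measure that needs no joining, peaks covered 64.5% and 73.7% in del/del, with 53.1% and 63.8% in del/fl, so the lower del/del and the higher del/fl value nearly met. Nkx2-9, 74.5 kb upstream, lay under a separate domain of 54.3 and 54.9 kb in del/del, with 29.6 and 38.0 kb in del/fl. The gap between the Nkx2-1 and Nkx2-9 domains was 33 and 18.7 kb in del/del, with 48.2 and 36.2 kb in del/fl.

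The Msx1 domain (gene at chr5:37820491-37824585) measured 33.4 and 126.9 kb in del/del, with 25.6 and 32.4 kb in del/fl, so that 1 del/del library set its mean. Unjoined, its longest peak measured 28.1 and 28.7 kb against 25.6 and 27.5 kb. In the 300 kb around Msx1 peaks covered 43.1% and 50.2% in del/del, with 27.6% and 31.8% in del/fl, so both del/del libraries were the high ones there too. Vax1 had 48.5 and 72.2 kb against 41.8 and 41.5 kb, but 41.3 and 41.2 against 41.8 and 41.5 kb unjoined. Vax2 had 53.6 and 54.2 kb against 50.7 and 51.8 kb, and unjoined the order turned to 36.5 and 37.7 against 50.7 and 49.7 kb.

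Because most genes were saturated near their ends, windows of 25 kb to each side were added after these values were seen. In them both del/del values lay below both del/fl values at 19 genes (17.1% of autosomal genes with a peak there) and above at 4 (6.26%), with a median difference of −2.61 points beside −0.276 over autosomal genes. limma called 0 of 42 (background 0.854% higher and 0% lower). Msx1 alone had an unadjusted p under 0.05 (background 4.61% higher and 1.02% lower), with 61.4% and 77.3% in del/del, with 49.8% and 57.4% in del/fl, a difference of 15.8 points and a limma adjusted p of 0.836.

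The strongest peak at most genes of the class ranked high within its list. The deposited pileup is the peak caller's stacked tag height and the fold enrichment its ratio to local background, so both were ranked within a list. At 39 of the 44 genes the strongest peak stood at or above percentile 95 of its own list in the 4 libraries, from 95.1 to 99.9, with fold enrichments of 5.13 to 15.2. Median pileup over the genes was 25.7 and 24.5 in del/del, with 25.4 and 23.9 in del/fl, where the medians of the whole lists were 7.64 and 6.29, and 7.41 and 6.26. Both comparisons set the strongest peak touching a gene against single peaks. Neither was made for all genes or another class, so they do not show whether the class stands apart.

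Hmx2 and Hmx3, which share a domain, were among the highest, with a fold enrichment of 14.48 and 13.96 in del/del, with 13.6 and 15.2 in del/fl. Nkx1-2 and Barhl2 were the lowest of the 39, at 5.15 and 5.13 against 5.72 and 5.81 for Nkx1-2. The 5 genes outside were Emx2 and Dbx2, with no peak, Nkx2-2, Nkx6-3 and Hlx. At Hlx the strongest peak stood at percentile 98.0 and 98.1 in del/del, with 30.6 and 98.4 in del/fl. In the first del/fl library the flanking domain at the lower-coordinate side ended just outside the 2.5-kb window, and end cover in 25 kb windows was 22.4% and 26.6% in del/del, with 24.8% and 31.6% in del/fl.

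Among partners of these factors in dorsoventral patterning, 17 of 24 genes had a peak at their ends in the 4 libraries and 7 were fully covered, among them Foxa2, Irx3, Gsx1 and Gsx2. Olig1, Olig2, Gli2, Gli3 and Bmp7 were among those with no peak at their ends in any library. Away from its ends, Gli3 held a domain of 11.2 and 7.35 kb in del/del, with 7.28 and 11.2 kb in del/fl. Gli2 held one of 0.746 kb in the second del/fl library. Shh, the ventral signal, had an end cover of 86.8% and 82.6% in del/del, with 81.4% and 83.6% in del/fl. limma called 0 of these genes at an adjusted p of 0.05. At an unadjusted limma p of 0.05, 3 were lower in del/del (background 4.18%) and 0 higher (5.66%). The autosomal background was 379 lower and 143 higher of 8064 genes.

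Those 3 were Ptf1a, Pax3 and Ptch1, the last named after its values were seen. Ptf1a of dorsal inhibitory neurons had 85.2% and 85.9% in del/del, with 100% and 100% in del/fl (limma adjusted p = 0.260). Pax3 of the dorsal neural tube had 50% and 50% against 58.9% and 61.9% (0.292 by the same test). Ptch1, the Hedgehog receptor, had 0% and 0% against 9.18% and 8.02% (0.267). At these genes both del/del libraries were the low ones. The dorsal signal Bmp4 had 94.8% and 77.9% against 70.5% and 75.4%, with both del/del values above (limma adjusted p = 0.624).

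Of the ventral forebrain and interneuron genes, 15 of 16 had a peak at their ends in the 4 libraries, and 0 were called by limma. At an unadjusted limma p of 0.05, 1, Npas1, was lower in del/del (background 4.18%), while 0 were higher (5.66%). The autosomal background was 379 lower and 143 higher of 8064 genes. The largest differences were again below 0 in del/del. Sp8, an interneuron transcription factor, had 56.2% and 72.5% against 87.6% and 83.0% (limma adjusted p = 0.597). Lhx6, a target of Nkx2-1 in interneurons, had 50% and 59.8% against 76.4% and 65.2%, and Dlx6os1, the transcript antisense to Dlx6, 50% and 50% against 57.9% and 75.9% (both 0.624 by limma after adjustment). At each of these both del/del libraries lay below both del/fl libraries.

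Among the 24 LIM, sine oculis and Iroquois genes limma called 0. At an unadjusted limma p of 0.05, 1, Lmx1b, was higher in del/del (background 5.66%), while 0 were lower (4.18%). The autosomal background was 143 higher and 379 lower of 8064 genes. Lmx1b, a dorsal midline and limb factor, had 68.2% and 66.3% against 50% and 55.2% (limma adjusted p = 0.323). Lhx6 is also in this list, and Irx6 had 67.6% and 75.2% against 80.3% and 78.9%. Of 16 Polycomb subunit genes 5 had a peak at their ends, 0 were called, and Bmi1 had 18.4% and 11.7% against 23.3% and 29.2%, Cbx8 40.4% and 45.7% against 44.4% and 56.3%, and Pcgf2 22.9% and 21.5% against 32.7% and 17.7%. Del/del was low at Bmi1, and the genotypes overlapped at Cbx8 and Pcgf2.

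The lists held 32971 and 39982 peaks in del/del, with 36934 and 45566 in del/fl, from 14064030 and 12819919 tags and from 13288499 and 11793402 tags. The lists measure the mark in a bulk population and neither expression nor loss of Smchd1, and alleles were not separated. For 18 neural stem cell markers, 17 had no peak at their ends in any library, and Pax6 had an end cover of 9.01% and 16.7% in del/del, with 8.70% and 22.1% in del/fl. A peak in the 4 libraries was found at 7 of 11 neuron markers, 1 of 8 microglia and blood markers, 2 of 8 fibroblast markers and 2 of 7 endothelial and mural markers. With 2 libraries a group, a difference of the size seen at Dlx2 was not called after adjustment.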

How the data were processed

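The 8 samples were 4 H3K27me3 ChIP libraries, 2 for each genotype, and the whole-cell extract of each. The submitters' processing notes name bcl2fastq, Bowtie 0.12.9 and the build mm10. Broad peaks were called for each library against its extract with MACS2 2.1.0.20140616, at a q-value cutoff of 0.05, with 1 tag kept per position, per the file headers. The deposited lists give peak positions, a pileup (a signal of stacked tags), a fold enrichment (a ratio to local background) and −log10 p-values and q-values, per the file headers. Library depths stand in the report.

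Gene coordinates came from RefSeq GRCm38.p6, the mm10 build, for which 34324 genes on the autosomes and X were used, and promoter sequences from RefSeq for 32 of the 44 genes. Percent cover and domains (gaps up to 3 kb joined) were computed in Python 3.11.15 (pandas 2.3.3, numpy 2.4.6, scipy 1.17.1; figures by matplotlib 3.10.9). Under R 4.3.3, limma 3.58.1 (trend and robust options, p-values adjusted by Benjamini-Hochberg) was run over every gene with a peak in any library, without a replicate block. The interval code and limma were tested on simulated data. Values in every library are given for genes lacking a peak in a library, genes under 50% end cover, the gene with the largest difference in each subfamily, the 5 longest and 3 shortest domains and up to 3 genes of each other list with the largest difference. Further genes with partial cover or separated domains were named after their values were seen. The members and lists were chosen with earlier results of these data known. Alternatives were lists of equal length, stricter peaks (−log10 q from 5 upward), other windows, joinings and filters, division by autosomal cover, autosomes alone, no variance trend, a replicate block and leaving out each library.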

Additional observations from a re-analysis of the deposited data

How the results depend on the processing

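Among the 44 genes, limma's count of 0 called at gene ends held under stricter peaks, lists of equal length, windows of 1, 5 and 25 kb, the other scales and filters and a replicate block (0). Same-numbered libraries share only a number: their deviations correlated at 0.104 over genes, with 2 pairs. Leaving out 1 library called 0 to 2 genes at the ends (Nkx6-2 and Vax2 without del/fl 1) and 0 to 1 in the body (Dlx2 without del/del 1, Nkx6-2 without del/fl 1), with the lone sample assumed to vary like the other group. Gained or lost genes numbered 0 to 1 (Nkx2-2, without del/fl 2), and 1 with 25 kb windows. Over all genes the count called at the ends was 0, but 111 with stricter peaks, 222 after division by autosomal cover, 21, 93 and 169 with 1, 5 and 25 kb windows, and 0 to 1558 with 1 library left out. For bodies it was 0, but 95 with stricter peaks, 5 with lists of equal length, 42 with a mean cover of at least 5%, 12 without a trend, and 0 to 1332 with 1 library left out. Division by autosomal cover moved the median difference to 8.10 in both windows, since it sets fully covered values apart by construction. Windows of 25 kb moved it to −2.61; 18 genes were fully covered in 5 kb and 0 in 25 kb windows. Joining up to 10 kb left 10 genes with shorter domains in del/del. Signs turned for Barhl1 (−0.325 to 5.99 with 1 library left out, below 0 without del/del 1; −2.45 with 25 kb), Hmx2 (−3.35 to 1.40, above 0 without del/del 1 at 0.900 and without del/fl 1; 5.73 after division), Msx3 (−3.72 to 8.30, below 0 without del/fl 2), Hlx (−17.3 to 2.28, above 0 without del/fl 2) and Vax2 (0.520 with 5 kb); apart from the effects of construction named here, the cause was not tested. A fit over all genes, with no filter, could not be made by limma because most variances were 0, so it was not run. Tag depth was 11793402 to 14064030 a library, and covers near 0% or 100% limit what a window can show.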
